A study of Mus musculus with 8 samples.

Results

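The genes of 9 neuropeptide precursors of the spinal cord, Penk, Tac1, Sst, Npy, Cck, Gal, Calca, Adcyap1 and Vip, were examined in mice with experimental autoimmune encephalomyelitis (EAE) and in healthy control mice. Their probe sets were found by gene symbol in the annotation of the Affymetrix MG U74Av2 array, which gave 11 probe sets of the 12422 tested and covered 8 of the 9 genes. Penk had 3 probe sets, Gal had 2, and Tac1, Sst, Npy, Cck, Adcyap1 and Vip had 1 each, while no probe set carried the symbol Calca, so that this gene was not analysed here. RNA of whole spinal cord of female SJL/J mice was hybridized on 5 EAE arrays (10 mice) and 3 control arrays (6 mice), each array with the pooled RNA of 2 animals. EAE mice were immunized under the skin of the flank with a PLP peptide, a fragment of the myelin proteolipid protein, and were killed at an average EAE grade of 2.5, on day 14 for EAE arrays 1 and 4, day 12 to 14 for array 2, day 17 for array 3 and day 15.5 for array 5. Shortly before death they were also given murine serum albumin by vein. According to the paper's methods, EAE induction also included Complete Freund's Adjuvant with mycobacteria, and injections of pertussis toxin. Control mice, matched for age and sex and killed on the same day, received vehicle, and no albumin is named for them, so that albumin and EAE cannot be told apart. The paper names neither adjuvant nor toxin for the control mice of the arrays, so these cannot be told apart from EAE either. All mice were 8 to 12 weeks old according to the labels. Arrays with the same number were processed on the same day and formed a batch, so that batches 1, 2 and 3 contain both groups and batches 4 and 5 only EAE.

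Neuropeptides are cut from larger precursor proteins by proprotein convertases inside dense core granules and are released from neurons to act on G protein-coupled receptors. In the spinal cord most of them are made by interneurons of the dorsal horn, the region that receives pain, touch and temperature signals. Enkephalin (from Penk) and somatostatin (from Sst) inhibit neurons, neuropeptide Y (from Npy) marks inhibitory interneurons, and substance P (from Tac1) transmits pain signals. Whole-cord RNA holds little mRNA of sensory neurons, whose cell bodies lie in the dorsal root ganglia outside the cord.

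Cck, Sst, Npy and Penk were lower in EAE than in control spinal cord, and no neuropeptide probe set was higher. Cholecystokinin (Cck) showed the largest difference of the 11 probe sets, 2.22-fold lower (95% confidence interval 1.87 to 2.63), followed by Sst at 1.72-fold (1.27 to 2.34), Npy at 1.43-fold (1.19 to 1.72) and the brightest Penk probe set at 1.29-fold (1.15 to 1.45). Tac1, Gal, Adcyap1 and Vip did not pass the test. In all, 4 of 11 neuropeptide probe sets passed as lower (adjusted p under 0.05, limma), where 11.4% of all probe sets tested were lower. None of the 11 was higher, against 8.26% of all probe sets (0 of 11 also at an unadjusted p under 0.05, and 0 of 11 with the unmoderated form of that model, which takes each variance from its own probe set only). In that unmoderated form none of the 4 lower probe sets passed either (adjusted p = 0.131 for Penk, 0.148 for Cck, 0.243 for Npy and 0.293 for Sst), so these calls rest on the variance that limma shares across probe sets. The median log2 fold change was -0.25 over the 11 probe sets and -0.05 over all probe sets tested. In 6 of the 11 every EAE array lay below every control array, as in 15.1% of all probe sets, and in 0 of 11 every EAE array lay above, as in 10.9% of all probe sets. In whole-tissue RNA, fewer cells of a type and less RNA per cell cannot be told apart.

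**Figure D1:**
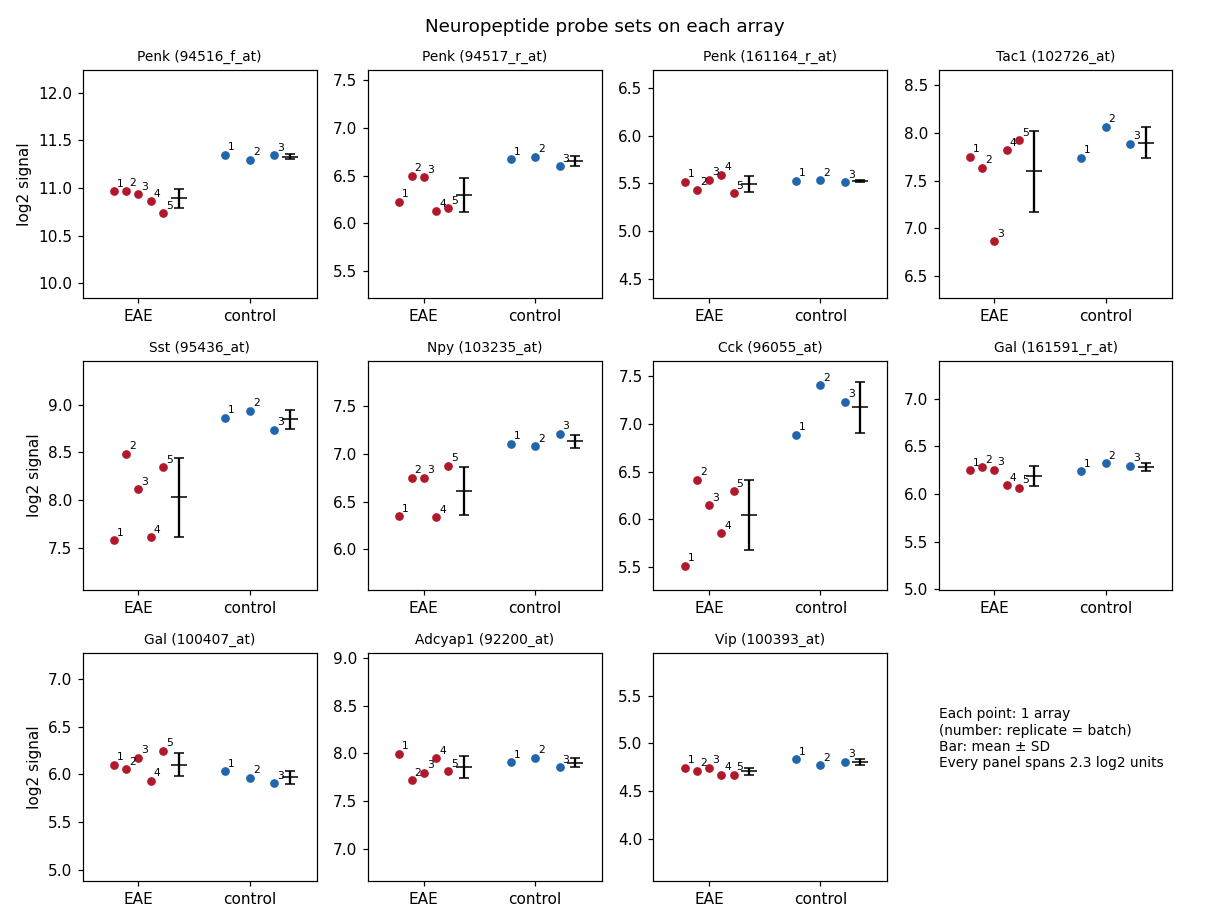
Log2 signal of the 11 neuropeptide probe sets (y axis) on each of the 5 EAE arrays (left in each panel, red) and 3 control arrays (right, blue), with the replicate number beside each point and the mean ± SD as a bar. For Cck the highest EAE array, at 6.42, is below the lowest control array, at 6.88, whereas for Tac1 only EAE array 3, at 6.86, stands apart from the rest.

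The promoter windows of 3 of the lower genes, Cck, Sst and Npy, are shown beside that of Vip, which did not pass the test. Transcription of many neuropeptide genes is known to respond to cyclic AMP through the factor CREB, which binds the cAMP response element TGACGTCA or its core of 5 bases, TGACG, on either strand. Each window runs from 250 bases before to 50 bases after a transcription start annotated by RefSeq on GRCm38.p6, in the direction of the gene, and the core is in capitals on whichever strand it lies (TGACG or CGTCA).
Cck (chr9:121495645-121495944, minus strand): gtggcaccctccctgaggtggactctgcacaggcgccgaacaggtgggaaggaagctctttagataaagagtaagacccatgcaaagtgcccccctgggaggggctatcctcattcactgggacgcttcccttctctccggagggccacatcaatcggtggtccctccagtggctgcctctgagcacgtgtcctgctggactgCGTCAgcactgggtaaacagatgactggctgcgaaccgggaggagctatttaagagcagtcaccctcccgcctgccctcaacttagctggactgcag
Sst (chr16:23890795-23891094, minus strand): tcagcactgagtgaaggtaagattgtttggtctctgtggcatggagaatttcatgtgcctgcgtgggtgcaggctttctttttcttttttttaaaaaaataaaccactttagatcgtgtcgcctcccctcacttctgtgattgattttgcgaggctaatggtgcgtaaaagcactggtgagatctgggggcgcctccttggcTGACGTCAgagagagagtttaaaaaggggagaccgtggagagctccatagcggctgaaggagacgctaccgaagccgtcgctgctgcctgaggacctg
Npy (chr6:49822460-49822759, plus strand): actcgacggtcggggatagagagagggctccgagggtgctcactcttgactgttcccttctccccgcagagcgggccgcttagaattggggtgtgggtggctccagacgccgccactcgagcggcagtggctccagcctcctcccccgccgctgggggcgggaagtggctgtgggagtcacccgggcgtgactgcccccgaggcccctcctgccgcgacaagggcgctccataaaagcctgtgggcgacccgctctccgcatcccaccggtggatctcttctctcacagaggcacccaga
Vip (chr10:5638968-5639267, plus strand): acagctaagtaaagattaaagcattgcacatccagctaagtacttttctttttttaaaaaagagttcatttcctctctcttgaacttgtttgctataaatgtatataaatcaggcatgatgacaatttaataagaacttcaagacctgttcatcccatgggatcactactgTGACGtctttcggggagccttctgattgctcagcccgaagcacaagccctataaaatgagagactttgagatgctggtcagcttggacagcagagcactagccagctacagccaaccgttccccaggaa
In Sst the full element is present from 48 bases before the start (position -48), where the core is read once on each strand with the 2 matches overlapping. Cck holds 1 core at position -47 and Vip 1 at -79, whereas the Npy window holds none. Of the 9 genes 8 matched the promoter table (Penk did not), in 9 windows since Adcyap1 has 2 that overlap. The core was found in 8 of these 9 windows, against 20.8% of all 32851 promoter windows of this length, and by gene in 7 of 8, against 6228 of 27025. The full element was found in 1 of the 9 windows, that of Sst, against 1.79% of all windows. Both genes that were lower and genes that did not pass thus hold the core, and a match of these letters does not show that a factor binds there.

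Cck encodes cholecystokinin, a peptide of gut and brain that in the dorsal horn is known to counter the effect of opioids. Its log2 signal was 5.51, 6.42, 6.15, 5.85 and 6.29 on EAE arrays 1 to 5, and 6.88, 7.40 and 7.23 on control arrays 1 to 3. The groups did not overlap, and EAE array 1, followed by array 4, was the lowest. The mean was 6.04 ± 0.36 in EAE (SD, n = 5 arrays) and 7.17 ± 0.26 in control (SD, n = 3 arrays). The log2 fold change with batch in the model was -1.15 with a standard error of 0.0956 (limma, adjusted p = 0.00269), and the exact two-sided permutation p was 0.0179 (1 in 56, the lowest possible here). The EAE minus control difference within batches 1, 2 and 3 was -1.37, -0.99 and -1.09. Over all probe sets, 20 of the 1412 that were lower had a larger fall than Cck.

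Sst encodes somatostatin, an inhibitory peptide that in the dorsal horn is made mainly by excitatory interneurons. Its log2 signal was 7.58, 8.49, 8.11, 7.61 and 8.34 on EAE arrays 1 to 5, and 8.87, 8.93 and 8.74 on control arrays 1 to 3. Every EAE array was below every control array, but the EAE arrays were spread over almost 1 log2 unit, with arrays 1 and 4 well below the other three. EAE averaged 8.03 ± 0.42 (SD, n = 5) and control 8.85 ± 0.10 (SD, n = 3), and the log2 fold change was -0.79 with a standard error of 0.172 (limma, adjusted p = 0.0359). The exact permutation p was 0.0357. The difference was -1.29 within batch 1, -0.45 within batch 2 and -0.62 within batch 3, so that batch 1 showed more than double the difference of either other batch. Without EAE array 2 or control array 2 Sst did not pass (adjusted p = 0.0529 from limma), nor without EAE array 3 or control array 3 (adjusted p = 0.138), nor after a further quantile normalization (adjusted p = 0.0511).

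Npy encodes neuropeptide Y, made in the dorsal horn by a class of inhibitory interneurons. Its log2 signal was 6.34, 6.75, 6.75, 6.33 and 6.87 on EAE arrays 1 to 5, and 7.10, 7.08 and 7.21 on control arrays 1 to 3. The groups did not overlap, and EAE arrays 1 and 4 were again the lowest. EAE averaged 6.61 ± 0.25 (SD, n = 5) and control 7.13 ± 0.07 (SD, n = 3), with a log2 fold change of -0.52 with a standard error of 0.102 (limma, adjusted p = 0.0273), an exact permutation p of 0.0536 and within-batch differences of -0.76, -0.33 and -0.46. Leaving out any array of batches 1, 2 or 3 ended the call, with an adjusted p from limma of 0.0524, 0.0514 and 0.128. The log2 fold change then lay between -0.61 and -0.40.

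Penk encodes proenkephalin, the precursor of the opioid enkephalins. Its brightest probe set, 94516_f_at, had a log2 signal of 10.97, 10.97, 10.94, 10.86 and 10.74 on EAE arrays 1 to 5, and 11.35, 11.30 and 11.34 on control arrays 1 to 3. The difference was small but the arrays of each group lay close together, and EAE array 5, not array 1 or 4, was the lowest. EAE averaged 10.90 ± 0.10 (SD, n = 5) and control 11.33 ± 0.03 (SD, n = 3), and the log2 fold change was -0.37 with a standard error of 0.0643 (limma, adjusted p = 0.0194), with an exact permutation p of 0.0179 and within-batch differences of -0.38, -0.33 and -0.41. Leaving out any array of batches 1, 2 or 3 ended the call (adjusted p from limma of 0.0566, 0.0744 and 0.108). The log2 fold change then lay between -0.40 and -0.35. The letter f marks a probe set whose probes may match several related sequences, and r one chosen with relaxed rules.

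The other Penk probe sets gave smaller differences. For 94517_r_at the log2 signal was 6.23, 6.50, 6.48, 6.13 and 6.16 on EAE arrays 1 to 5, and 6.67, 6.70 and 6.60 on control arrays 1 to 3. These groups did not overlap, but the log2 fold change of -0.25 (standard error 0.0878) did not pass with batch in the model (adjusted p = 0.116 from limma). Without the batch term it was -0.36 and passed (adjusted p = 0.0406). The third, 161164_r_at, lay between 5.39 and 5.59 in EAE and between 5.51 and 5.53 in control, with a log2 fold change of -0.03 (95% confidence interval -0.20 to 0.14). The mean of the 3 probe sets had a log2 fold change of -0.22 and did not pass (adjusted p = 0.0833 from limma), so the call for Penk rests on its brightest probe set.

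Tac1, the precursor of substance P and neurokinin A, had a log2 signal of 7.75, 7.64, 6.86, 7.82 and 7.93 on EAE arrays 1 to 5, and 7.74, 8.06 and 7.89 on control arrays 1 to 3. The groups overlapped, and EAE array 3, the pool killed on day 17, stood alone below all the others. EAE averaged 7.60 ± 0.42 (SD, n = 5) and control 7.90 ± 0.16 (SD, n = 3). The log2 fold change was -0.48 with a standard error of 0.198 and did not pass (limma, adjusted p = 0.169), and the difference within batches 1, 2 and 3 was 0.01, -0.43 and -1.02. The value depended on which pair entered it. Without an array of batch 1 it was -0.73 and passed (adjusted p = 0.0462 from limma), and without an array of batch 3 it was -0.21 (adjusted p = 0.483).

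Gal, which encodes galanin, a peptide whose mRNA is known to increase in sensory neurons after nerve injury, gave 2 probe sets of opposite sign. Probe set 161591_r_at lay between 6.06 and 6.28 in EAE and between 6.24 and 6.32 in control (log2 fold change -0.02, 95% confidence interval -0.19 to 0.14). Probe set 100407_at lay between 5.93 and 6.25 in EAE and between 5.90 and 6.03 in control (log2 fold change 0.14, 95% confidence interval -0.05 to 0.33), with an EAE array above its control array by 0.07, 0.09 and 0.27 in batches 1, 2 and 3. Neither passed the test (adjusted p = 0.848 and 0.270 from limma), and their groups overlapped.

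Adcyap1 encodes the pituitary adenylate cyclase-activating peptide (PACAP), and its log2 signal was 7.99, 7.71, 7.79, 7.95 and 7.81 on EAE arrays 1 to 5, and 7.91, 7.95 and 7.85 on control arrays 1 to 3. The groups overlapped, and the log2 fold change was -0.07 (95% confidence interval -0.29 to 0.15, adjusted p = 0.667 from limma). Vip encodes vasoactive intestinal peptide, a relative of PACAP that acts on shared receptors, and its signal lay between 4.67 and 4.74 in EAE and between 4.77 and 4.83 in control. The groups did not overlap, but the log2 fold change was only -0.07 (95% confidence interval -0.23 to 0.09) and did not pass (adjusted p = 0.521 from limma). The mean signal of Vip was at percentile 13.6 of all probe sets, and the deposited values carry no detection call, so whether it was above background was not tested.

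**Figure D2:**
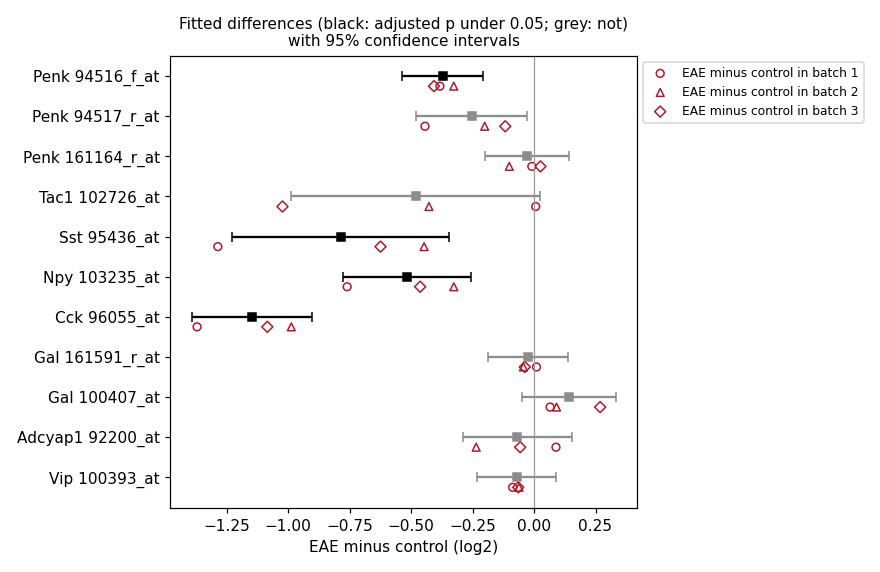
Fitted EAE minus control difference on the log2 scale (x axis) for each neuropeptide probe set, with its 95% confidence interval (squares and bars, black where the adjusted p was under 0.05 and grey where it was not) and the difference within batches 1, 2 and 3 (open symbols). Cck, at -1.15, lies farthest below 0 with the 3 batches between -1.37 and -0.99, whereas the batches of Tac1 run between -1.02 and 0.01.

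The lowest EAE array was not the same for every neuropeptide. Cck, Sst and Npy were lowest in EAE arrays 1 and 4, Tac1 in array 3, Penk probe set 94516_f_at in array 5 and Penk 94517_r_at in arrays 4 and 5. EAE arrays 1 and 4 were both pools killed on day 14, beside day 12 to 14 for array 2, 17 for array 3 and 15.5 for array 5. RNA quality also moved with part of this pattern, so that it and the day of death cannot be told apart here. The log2 signal of Gapdh at its 3' end exceeded that at its 5' end, a measure of RNA degradation, most in EAE arrays 1 and 4, by 1.46 and 2.07, while EAE arrays 2, 3 and 5 gave 0.46 to 0.78 and the controls 0.53 to 0.97. The same measure on beta-actin gave 2.35 and 2.79 in EAE arrays 1 and 4, 1.11 to 1.83 in EAE arrays 2, 3 and 5, and 1.62 to 2.29 in the controls. In a fit chosen after the data were seen, without arrays 1 and 4, and without the batch term since batch 1 then has no pair, the 3 remaining EAE arrays were still below the 3 control arrays by a log2 fold change of -0.89 for Cck (adjusted p = 0.00721 from limma), -0.53 for Sst (0.0189), -0.34 for Npy (0.0208) and -0.45 for Penk (0.0115). Cck, Sst, Npy and Penk all passed in this fit, with a smaller difference for Cck, Sst and Npy. The part of RNA quality in the neuropeptide values was not tested. With the batch term kept, Npy and Penk did not pass without arrays 1 and 4 (adjusted p = 0.0524 and 0.0566).

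**Figure D3:**
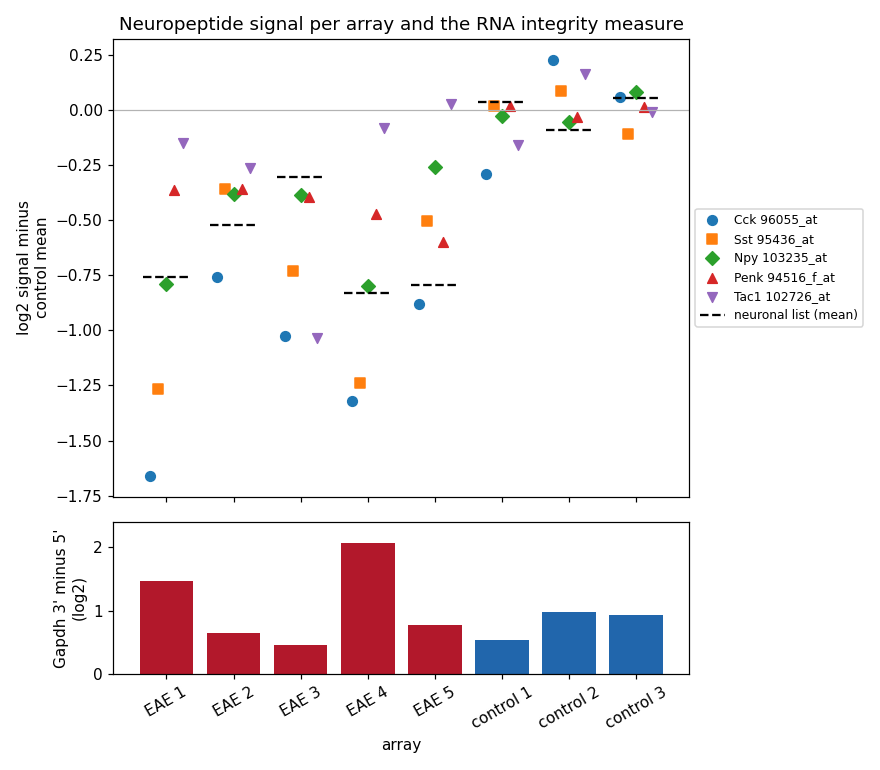
Log2 signal of 5 neuropeptide probe sets and mean of the neuronal list, each relative to its own mean over the control arrays (upper y axis), and the Gapdh 3' minus 5' log2 difference (lower y axis), on each EAE and control array (x axis). Cck, Sst and Npy are lowest in EAE arrays 1 and 4, where the Gapdh difference is 1.46 and 2.07, and Tac1 is lowest in EAE array 3.

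General neuronal genes were also lower in EAE. Among all probe sets tested 11.4% were lower and 8.26% higher. Of 13 neuronal markers 5 were lower and 0 higher, with a median log2 fold change of -0.49, among them the neurofilament subunit Nefh (-0.69), the intermediate filament protein Ina (-0.63), the neuronal enolase Eno2 (-0.51) and the microtubule regulator Stmn2 (-0.49). Of 11 markers of inhibitory and excitatory spinal neurons 6 were lower and 0 higher, with a median of -0.36, for example Reln, an extracellular matrix protein (-0.90), Slc32a1, which loads GABA and glycine into vesicles (-0.84), the GABA-synthesizing enzyme Gad1 (-0.68) and the calcium-binding protein Calb1 (-0.56). In both lists 0 were higher at an unadjusted p under 0.05 as well, with limma and with the unmoderated model. Of 4 motor neuron genes Prph was lower (-0.51), with a list median of -0.42. The mean signal of the neuronal list relative to the control mean was -0.76, -0.52, -0.30, -0.83 and -0.80 on EAE arrays 1 to 5, so arrays 1 and 4 were low for this list as well, and array 5 beside them. On array 5 Nefm was at 6.05 and Syp at 5.75, against control means of 10.35 and 7.44. Stmn2, Eno2 and Ina were instead highest on array 5 among the EAE arrays. Nefm, which did not pass and had an SD of 1.48 in EAE, also enters the list mean used below.

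Whether a neuropeptide fell more than these neuronal genes was tested on the difference between its signal and the mean of each list on the same array, with an exact two-sided permutation test that ignores batch (22 such tests, for 11 probe sets and 2 lists, chosen after the values were seen and not adjusted for their number). Each difference is given relative to its mean over the control arrays. Relative to the inhibitory and excitatory neuron list, Cck was lower by a log2 difference of -0.81 ± 0.32 in EAE (SD, n = 5 arrays; control SD 0.28, n = 3 arrays), below every control array in 5 of 5 EAE arrays (exact permutation p = 0.0179, the smallest possible). Relative to the general neuronal list the difference was -0.49 ± 0.34, below every control array in 3 of 5 EAE arrays (exact permutation p = 0.107). For Sst the differences were -0.50 (exact permutation p = 0.0893) and -0.18 (p = 0.464), for Npy -0.20 (p = 0.179) and 0.12 (p = 0.607), and for Penk 94516_f_at -0.12 (p = 0.304) and 0.20 (p = 0.125). Within batches 1, 2 and 3, where the EAE and control arrays are paired, Cck was at -0.95, -0.69 and -0.73 relative to the inhibitory and excitatory list and at -0.58, -0.56 and -0.73 relative to the general neuronal list, so that it fell further than both lists in every pair. Sst also fell further than both lists in each pair, at -0.87, -0.15 and -0.27 relative to the inhibitory and excitatory list and at -0.49, -0.02 and -0.27 relative to the general one. Npy fell further than the inhibitory and excitatory list in each pair (-0.34, -0.03 and -0.11) and had mixed signs relative to the general one (0.03, 0.10 and -0.11), as Penk 94516_f_at had relative to both. These paired differences were not tested, and of these 4 probe sets only Cck, relative to the inhibitory and excitatory list, had a permutation p under 0.05. That list includes Nos1, Lmx1b, Pax2 and Tlx3, dim genes at percentile 9.36 to 20.9 of mean signal. Their log2 fold changes lay between -0.11 and 0.06, against -0.90 for Reln, -0.84 for Slc32a1 and -0.68 for Gad1. A list without the dim genes was not tested. Penk 94517_r_at was at 0.28 relative to the general neuronal list (exact permutation p = 0.0357) and at -0.04 relative to the other (p = 0.768). Relative to both lists, Adcyap1, Vip, Gal 100407_at and Penk 161164_r_at, none of which passed the test of EAE against control, lay above every control array in 5 of 5 EAE arrays. Relative to the general neuronal list the differences were 0.59, 0.54, 0.77 and 0.61 in that order, and relative to the inhibitory and excitatory list 0.27, 0.23, 0.46 and 0.29 (exact permutation p = 0.0179 for Gal and 0.0357 for the others, on both lists). Gal 161591_r_at was above every control array in 5 of 5 EAE arrays relative to the general list (0.54, exact permutation p = 0.0179) and in 4 of 5 relative to the other (0.22, p = 0.0714). These values mirror the fall of the lists, whose mean was lower on every EAE array than on every control array. A probe set with no change at all would thus lie high relative to both lists. The permutation p values therefore do not show a rise of these probe sets. How many of all probe sets would lie above the controls in the same way was not counted.

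The machinery that makes neuropeptides was lower in part. Of 14 genes of peptide processing and dense core granules 5 were lower and 1 was higher, with a median log2 fold change of -0.34. Beside these counts, 11.4% of all probe sets tested were lower and 8.26% higher. Chga, the granule protein chromogranin A, had the largest fall (-1.08 on the log2 scale with a standard error of 0.162, limma, adjusted p = 0.0133), at a mean log2 signal of 6.60 in EAE and 7.99 in control. On EAE array 5 Chga was at 5.66, against 6.37 to 7.32 on the other EAE arrays. Its difference within batches 1, 2 and 3 was -0.99, -1.53 and -0.72. The lower genes also included Scg5, a chaperone of the convertase PC2 (-0.54), the granule protein Scg3 (-0.44), Cadps, which primes granules for release (-0.42), and Pcsk1, the convertase PC1 that cuts many precursors (-0.39). The single higher gene was Furin, a convertase of the secretory pathway that most cell types express (0.56, adjusted p = 0.0491). Ctsl had a larger positive log2 fold change (0.87) but did not pass (adjusted p = 0.0957 from limma). Cpe, the carboxypeptidase that trims the cut peptides, and Pam, which amidates them, did not pass (log2 fold change -0.10 and -0.20). Scg2 was just outside the threshold (-0.30, adjusted p = 0.0507).

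None of 27 receptors and receptor subunits of the member peptides passed the test in either direction (0 higher and 4 lower at an unadjusted p under 0.05 from limma and the same with the linear model without moderation, which called 0 after adjustment). Their median log2 fold change was -0.05, and over all probe sets tested 11.4% were lower and 8.26% higher. The largest difference was that of Ramp1, the subunit that turns the receptor Calcrl into a receptor for calcitonin gene-related peptide, the main product of Calca in neurons (-0.68 with a standard error of 0.198, limma, adjusted p = 0.0774), and its EAE arrays all lay below its control arrays. The other 3 with an unadjusted p under 0.05 were receptors of somatostatin (Sstr2, -0.24), of neuropeptide Y (Npy5r, -0.19) and of VIP and PACAP (Vipr2, -0.18). The mu opioid receptor Oprm1, the substance P receptor Tacr1 and the cholecystokinin receptor Cckbr were at a log2 fold change of 0.05, -0.04 and -0.05. The receptor list had a mean log2 signal of 5.60 to 5.68 on the EAE arrays and 5.69 to 5.79 on the control arrays, below the array medians of 6.08 to 6.12.

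Of 21 other neuropeptide precursors 2 were lower and 0 higher (0 higher also at an unadjusted p under 0.05 with either model), with a median log2 fold change of 0.02. Over all probe sets tested 11.4% were lower and 8.26% higher. The list had a mean log2 signal of 5.70 to 5.75 in EAE and 5.80 to 5.84 in control, below the array medians of 6.08 to 6.12. Nmu, the precursor of neuromedin U, was at a mean log2 signal of 5.44 in EAE and 6.44 in control (-1.17 on the log2 scale with a standard error of 0.122, limma, adjusted p = 0.00508), beside -1.15 for Cck. Pnoc, the precursor of the opioid-like peptide nociceptin, was at 5.09 in EAE and 5.73 in control (-0.54 on the log2 scale with a standard error of 0.108, adjusted p = 0.0279). The other 19 lay between -0.26 and 0.14. Of 10 peptidases that degrade neuropeptides Anpep, the aminopeptidase N that cleaves enkephalins and is also found on myeloid cells, was higher (log2 fold change 0.96, adjusted p = 0.00613) and 0 were lower (1 at an unadjusted p under 0.05 from limma, 0 with the unmoderated model).

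**Figure D4:**
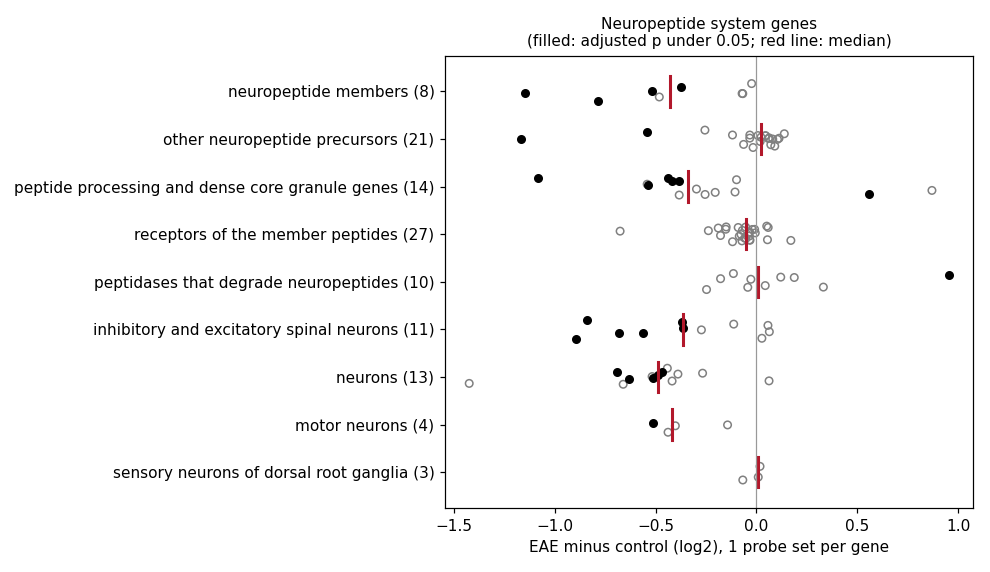
EAE minus control difference on the log2 scale (x axis) of each measured gene in 9 gene lists (y axis, number of genes measured in brackets), filled where the adjusted p was under 0.05, with the median of each list as a red line. The medians of the neuropeptide, granule and 3 neuronal lists other than sensory neurons lie between -0.49 and -0.34, while those of the receptors, the other precursors, the peptidases and the sensory neuron genes lie between -0.05 and 0.02. All of the latter lists have a mean signal below the array medians.

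Other cell types and states moved with the same groups, and their part in the neuropeptide values was not tested. The counts below stand beside 8.26% higher and 11.4% lower over all probe sets tested. Of 10 macrophage and microglia markers 9 were higher, with a list mean of 7.83 to 8.35 in EAE and 5.85 to 5.89 in control, and Lyz2, a lysozyme of myeloid cells, rose most (5.93). Of 9 T cell markers 3 were higher, Cd2 (0.67), Cd3e (0.66) and Cd5 (0.48), and of 5 B lineage markers 0 passed (1 higher at an unadjusted p under 0.05, Cd22, and 0 with the unmoderated model). Of 8 mast cell markers Hdc, the enzyme that makes histamine and is also found in other myeloid cells, was higher (0.91), Kit was lower (-0.56), and the granule proteases were within 0.09 of 0. Of 6 astrocyte markers Gfap was higher (0.74) and S100b lower (-0.50). Of 7 oligodendrocyte markers 3 were lower, Ugt8a (-1.63), Mog (-0.89) and Mal (-0.53). Of 3 Schwann cell markers Egr2, also an immediate early gene of other cells, was higher (0.73). The 3 measured genes of dorsal root ganglion sensory neurons, among them the sodium channels Scn10a and Scn9a, did not pass in either direction (0 of 3 also unadjusted, with either model) and lay at list means of 4.75 to 4.84 in EAE and 4.76 to 4.84 in control. Of 9 genes known to respond to nerve injury 4 were higher, Socs3 (2.29), Atf3 (1.67), Stat3 (0.63) and Sprr1a (0.60), and Gap43 was lower (-0.43). Of 10 genes of the CREB family and immediate early genes Fos (0.53) and Junb (0.52) were higher and 0 were lower (0 also unadjusted with either model), and Creb1 itself was at -0.10.

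The genes whose signal was most like that of a lower neuropeptide over the 8 arrays, by Pearson correlation and as a description only since all of these arrays share the group difference, were Tenm2, Auh and Hcfc1r1 for Cck (r = 0.985, 0.983 and 0.981), Mrpl34, Hax1 and Tenm2 for Sst (r = 0.982, 0.977 and 0.975), Nsf, Ntsr2 and Apcs for Npy (r = 0.981, 0.980 and 0.980) and Srpk3, Sorl1 and Pla2g6 for Penk (r = 0.995, 0.987 and 0.982). Tenm2, a synaptic adhesion protein, stood in the lists of both Cck and Sst, with a log2 fold change of -0.26. Nsf, which drives the fusion cycle of synaptic vesicles, had a log2 fold change of -0.61 and Ntsr2, a neurotensin receptor, of -1.11.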

How the data were processed

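The log2 values of 8 arrays were used as deposited by the authors, who used Partek software (RMA with quantile normalization and an adjustment for GC content). Tool versions are not given in the sources used here. Groups and batches came from the sample labels. The 66 control probe sets of the array did not enter the tests, and dim probe sets did. Following the 2 way analysis of variance of the methods, treatment and batch were fitted over all 12422 probe sets with limma 3.58.1 in R 4.3.3 (2 residual and 3.05 prior degrees of freedom), so the difference rests on the pairs of batches 1 to 3. Tests were two-sided, p values were adjusted by Benjamini-Hochberg over all probe sets, and the threshold was 0.05. The exact permutation test ignores batch. Each array is a labelled sample of 2 pooled animals, and the number of arrays limits the precision. With batch in the model, the limma p values rest on the spread of the EAE minus control differences within batches 1 to 3. The variance is also shared across probe sets.

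The labels give arrays of the same number 1 batch and processing day, and the correlation of their deviations from the group means was 0.302, -0.231 and 0.412 for batches 1, 2 and 3. Probe sets with 1 gene symbol (10833) were named from the array annotation, and in the 17 other gene lists the brightest probe set stood for a gene (178 of 226 listed genes measured, the neuropeptides included). All members of the granule and receptor lists could be named, up to 4 called members of each other list (2 where none was called), and the 3 genes most like each called neuropeptide. Gap43, Creb1, Cd22, Nefm, Syp, Nos1, Lmx1b, Pax2 and Tlx3 were singled out after their values were seen. Members and lists were chosen with earlier results of these data known. The fit was tested on simulated data with known answers. Their noise was drawn from the moderated variances of limma, so the simulation cannot test that moderation. Alternatives were other batch, variance, scaling, weighting and brightness settings, a stricter threshold and arrays left out. Figures were drawn with matplotlib 3.10.9.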

Additional observations from a re-analysis of the deposited data

Results flagged for a closer look

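In 1 of 13 groups of 5 EAE arrays examined (the 11 neuropeptide probe sets and the 3' minus 5' differences of Gapdh and beta-actin), a single array was separated from the rest by most of the range of the group (by chance, about 1 group in 20 would be). This was Tac1 in EAE array 3, the pool killed on day 17, with a log2 signal of 6.86 against 7.64 to 7.93 in the other EAE arrays. Its control array of the same batch was at 7.89, inside the range of the other controls.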

How the results depend on the processing

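Only 2 residual degrees of freedom stand behind each test. Without moderation of the variances 1 probe set was higher, 0 were lower and 0 of 11 neuropeptide probe sets were lower after adjustment (1081, 1575 and 3 at an unadjusted p under 0.05), and the adjusted p of Cck was 0.148. At an adjusted p under 0.01 the counts were 540 higher and 290 lower, and 1 neuropeptide probe set, Cck, was lower. Leaving out each array in turn gave 521 to 1026 higher, 225 to 1412 lower and 1 to 4 lower neuropeptide probe sets, the fewest without EAE array 3 or control array 3 over all probe sets, and Cck alone without either array of batch 2 or 3. EAE arrays 4 and 5 have no control in their batch and do not move the fit with batch. Leaving out an array of batches 1, 2 or 3 takes its whole pair out of that fit, which leaves fewer residual degrees of freedom. Without the batch term (no replicate block) 5 neuropeptide probe sets were lower, Penk 94517_r_at beside the 4, and no other neuropeptide call changed. After a further quantile normalization Sst did not pass (adjusted p = 0.0511). Among probe sets that did not pass, the log2 fold change changed sign for Penk 161164_r_at (-0.055 to 0.0083 over the arrays left out), Adcyap1 (-0.15 to 0.016) and Gal 161591_r_at (0.059 as the mean of the probe sets of Gal). Relative to the inhibitory and excitatory in place of the general neuronal list, the sign turned for Npy (-0.20), Penk 94516_f_at (-0.12) and Penk 94517_r_at (-0.038); the cause was not tested. Intensity trend, robust prior, median centring, array weights and the brighter probe sets alone changed none of these 4 calls.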
